A study of Bos taurus with 14 samples.

Results

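Haptoglobin mRNA set 8 of 14 Holstein bull calves apart from the other 6 in these liver transcriptomes. The calves were divided by the measured level of HP, the gene of haptoglobin, in each liver library. The high side holds the 8 calves with at least 2000 TPM of HP, an abundance relative to transcript length and library size, and the low side the 6 calves below that limit. The sides were chosen by the mRNA level itself and are not a treatment, so HP is described here with no test. Every calf had been reared on milk replacer at 1.75% of body weight, with starter feed from day 33, a cut of milk to 50% on day 82, weaning by day 89 and slaughter on day 90. The 7 control calves (CON) had no supplement, and the 7 DCLI calves were fed 1 g daily of killed cells of Lactobacillus ingluviei strain CR37. Of the control calves 5 fell on the high side and 2 on the low side, against 3 and 4 of the DCLI calves. Each library came from poly(A)-selected RNA of 1 piece of whole liver from 1 calf, so every value is a level in a mixture of cells. In such a sample, fewer cells of a type and less RNA per cell cannot be told apart.

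Haptoglobin is a plasma protein made by hepatocytes that binds free haemoglobin and hands it to macrophages for disposal. In cattle it is the classical marker of the acute phase response, the change of liver output that follows infection or tissue damage. Interleukin 6 acting through STAT3, together with interleukin 1 and NF-kB, turns on genes of the positive acute phase proteins, such as haptoglobin, the serum amyloids A and fibrinogen. Negative acute phase proteins such as albumin and transthyretin are made less during the same response. SOCS3 is induced by STAT3 and closes the loop by blocking the receptor complex.

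HP had 1 transcript in the table, and its level ran over a range of 630-fold between calves. On the low side it was 46.6 TPM in control calf 1, 138 TPM in DCLI calf 5, 351 TPM in control calf 7, 437.5 TPM in DCLI calf 7, 837 TPM in DCLI calf 2 and 901 TPM in DCLI calf 3. Levels on the high side were 2982 TPM in control calf 3, 5311 TPM in control calf 2, 10022 TPM in DCLI calf 1, 11639 TPM in control calf 6, 16684 TPM in control calf 5, 20114 TPM in DCLI calf 4, 21480 TPM in control calf 4 and 29341 TPM in DCLI calf 6. The calves nearest to the limit, DCLI calf 3 below it and control calf 3 above it, were 3.31-fold apart. The medians of the sides were 14162 and 394 TPM, which is 35.9-fold. On the high side HP alone made up 0.298% to 2.93% of all TPM. Calves of both feeding groups stood on both sides, and the lowest and the highest calf came from different groups.

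**Figure D1:**
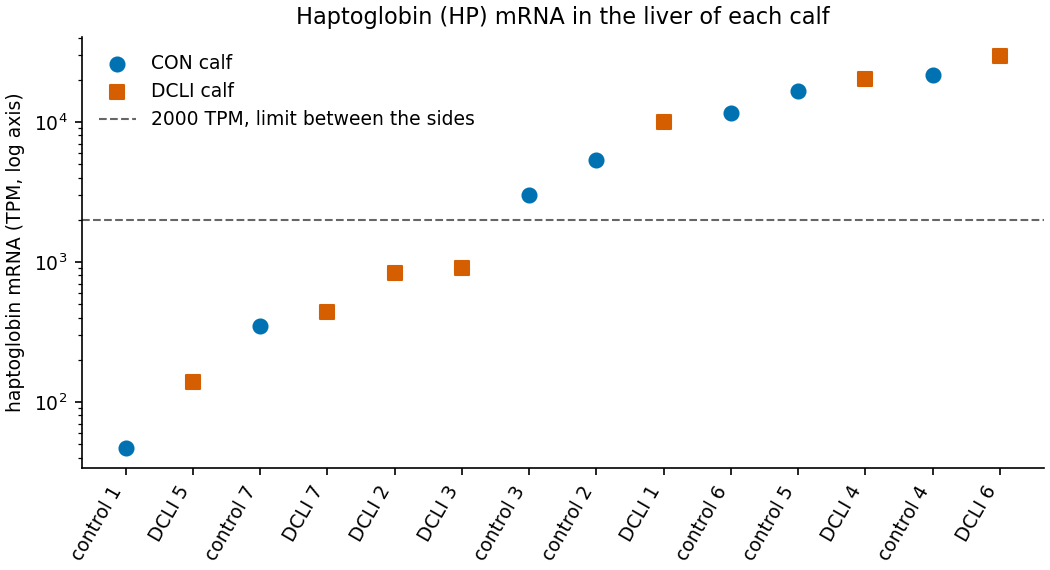
Haptoglobin mRNA of each of the 14 calves in TPM on a log axis, 1 point per calf in order of level, with control calves as circles and DCLI calves as squares. The dashed line is the limit of 2000 TPM, and the calves on either side of it have 901 and 2982 TPM.

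In the whole series, between 11430 and 12358 genes reached 1 TPM in a library, and the columns all had the same total by construction, so the depth of a library is unknown. Control calf 2 was the library least like the rest, with a median correlation of 0.948 to the other libraries against 0.963 to 0.977 for the others. It lay on the high side, and counts without it are given beside the main ones. Since every column has the same total, a larger share for abundant transcripts lowers all other TPM values of a library. The median log2 difference over all genes was -0.16, and it was -0.08 after rescaling without the 20 most abundant genes and HP. What caused this shift was not tested, and each TPM difference is to be read against it. Values after median-ratio scaling, which sets the median difference to 0.00, are therefore given beside genes that were lower.

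High and low sides were compared across 11904 genes on the log2(TPM + 1) scale with the feeding group as a covariate (limma, Benjamini-Hochberg adjusted p under 0.05). There were 48 genes higher on the high side, 0.403% of those tested, and 243 lower, 2.04%, so that 2.44% passed in either direction. After median-ratio scaling 35 genes were higher (0.294%) and 4 were lower (0.0336%). The share of calls that were higher thus went from 16.5% to 89.7%. Of the 48 higher genes 33 were called on both scales, but of the 243 lower genes only 4 were. The levels of the sides did not overlap at all for 22 genes with the high side above (0.185%) and for 196 genes with it below (1.65%). Without control calf 2 the counts were 84 higher and 1107 lower. Leaving out any other single calf gave 8 to 76 higher and 3 to 331 lower genes, the fewest higher ones without DCLI calf 5.

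**Figure D2:**
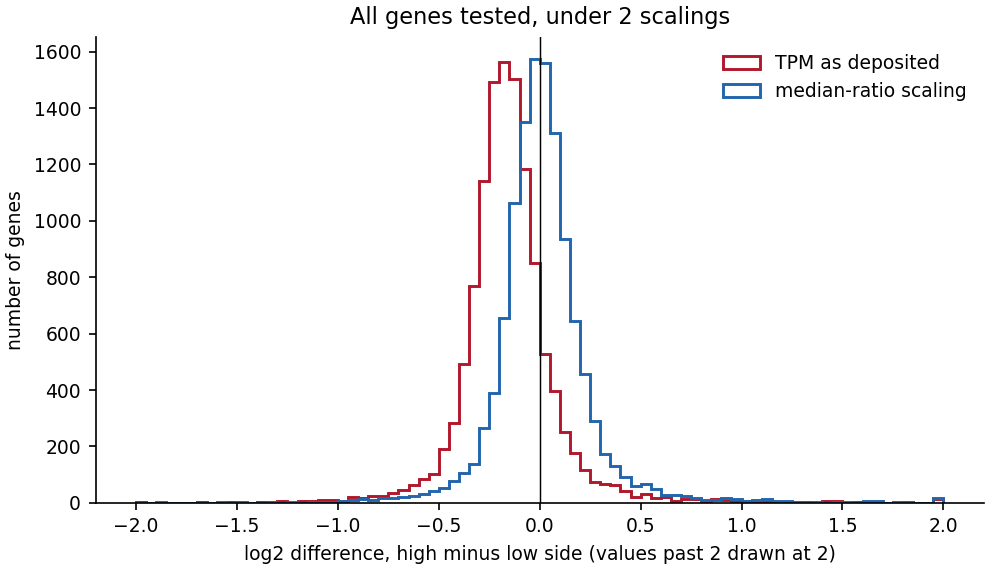
Histogram of the log2 difference (high minus low side) of the 11904 genes tested, with the number of genes on the vertical axis, for TPM as deposited and after median-ratio scaling. The TPM histogram is centred below 0, with a median of -0.16, and the scaled one at 0.00.

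The serum amyloid A genes were among the largest differences. SAA2, which encodes a serum amyloid A protein, had 8328 to 20509 TPM (median 17084) on the high side and 2486 to 6376 TPM (median 3691) on the low side. No calf of the low side reached the lowest calf of the high side, and the log2 difference was 2.15 ± 0.25 (adjusted p = 0.00124). M-SAA3.2, a gene of the mammary-associated serum amyloid A3 group, had 24.8 to 106 TPM (median 54.1) against 8.05 to 18.0 TPM (median 11.02), again without overlap (2.16 ± 0.28, adjusted p = 0.00242). SAA3 had 55.5 to 542 TPM (median 209) against 11.7 to 106 TPM (median 31.8). Its sides overlapped and it missed the threshold (2.16 ± 0.59, adjusted p = 0.0622). SAA4, the constitutive member of the family, had 171 to 548 TPM (median 264) and 136 to 307 TPM (median 215), with no call (adjusted p = 0.247). These genes are near copies of each other, so the split of reads between them is uncertain. LOC104968478, a gene without a name that lies between SAA3 and SAA2 in the RefSeq order of chromosome 29, had the lowest p of all genes, for which reason it is named after its values were seen. It had 4660.3 to 22006 TPM (median 12888) on the high side and 838 to 3163 TPM (median 1824) on the low side, a log2 difference of 3.14 ± 0.25 (adjusted p = 3.50e-05).

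Lipocalin 2 (LCN2), which starves bacteria of iron by binding their siderophores, differed with little spread inside the high side. It had 15.1 to 20.3 TPM (median 19.7) in the high calves and 2.54 to 9.97 TPM (median 7.11) in the low calves. The 8 high calves lay in a narrow band over the whole range of their HP levels, and control calf 1 was far below the other low calves. The log2 difference was 1.49 ± 0.17 (adjusted p = 0.00124). SERPINA3, an inhibitor of chymotrypsin-like proteases, had 1369 to 3858 TPM (median 2056) against 635 to 1373 TPM (median 920.0) (1.41 ± 0.25, adjusted p = 0.0224). Its sides overlapped by 1 pair of calves, control calf 3 at 1369 TPM and DCLI calf 2 at 1373 TPM. Among its bovine paralogs SERPINA3-3, SERPINA3-8 and SERPINA3-7 were higher by 1.28, 1.19 and 0.94 log2 units, and SERPINA3-1 had a difference of 0.72 that was not called (adjusted p = 0.0575). The levels of these paralogs are uncertain for the same reason as those of the amyloids.

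All 3 fibrinogen chains, the subunits of the clotting protein, were higher by TPM, FGA and FGG also after median-ratio scaling. FGA had 10427 to 20853 TPM (median 13769) on the high side and 6324 to 9190.2 TPM (median 7742) on the low side, without overlap (1.00 ± 0.17, adjusted p = 0.0216). FGG and FGB differed by 1.02 ± 0.20 and 0.88 ± 0.20 (adjusted p = 0.0321 and 0.0394, the latter 0.0534 after scaling), with overlap of the sides in both. FGL1, a fibrinogen-related protein secreted by hepatocytes, had 3241 to 5788 TPM (median 4865) against 2063 to 2571 TPM (median 2362) and no overlap (0.93 ± 0.14, adjusted p = 0.00900). LBP, which binds bacterial lipopolysaccharide and passes it to CD14, had 246 to 983 TPM (median 485) against 123 to 294 TPM (median 181) (1.52 ± 0.29, adjusted p = 0.0321). STEAP4, a metalloreductase of iron and copper, had 12.4 to 35.2 TPM (median 25.0) against 5.74 to 8.31 TPM (median 6.99), with a gap between the sides (1.45 ± 0.23, adjusted p = 0.0207). ITIH4, an inter-alpha-trypsin inhibitor heavy chain that is a major acute phase protein in cattle and pigs, and C4BPA, the alpha chain of the complement inhibitor C4b-binding protein, were higher by 0.98 and 0.40 log2 units (adjusted p = 0.0339 and 0.0466, the latter 0.0805 after scaling).

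Counted as a list, positive acute phase proteins other than HP had 39 entries. They matched 35 genes, with SAA1 and SAA2 as the same gene, and 34 were tested. Their differences were above 0 for 28 and below 0 for 6 genes, and 15 were called higher and none lower, where 0.403% of all genes were called higher. The median difference of the list was 0.60, against -0.16 for all genes. After median-ratio scaling it was 0.80, with 13 calls. Markers SAA2, LCN2 and SERPINA3 were named with earlier results of these libraries known and are no independent evidence. Summed over the list, the TPM was 112461 to 206356 in high calves and 73799 to 85680 in low calves. Not every acute phase gene followed. ORM1, the gene of alpha-1-acid glycoprotein, had 5485 to 71549 TPM (median 28201) against 11141 to 23926 TPM (median 13169) and was not called (0.47, adjusted p = 0.504), and the high side held both the lowest calf, DCLI calf 4, and the highest, DCLI calf 6. CRP, C-reactive protein, which is not a major acute phase protein in cattle, had medians of 633 and 632 TPM (0.12, adjusted p = 0.625). HAMP, the iron hormone hepcidin, which interleukin 6 induces, had 61.4 to 1584 TPM (median 276) against 259 to 529 TPM (median 446) (-0.10, adjusted p = 0.916). HPX, the haem carrier hemopexin, had a difference of 0.69 ± 0.21 (adjusted p = 0.0829).

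**Figure D3:**
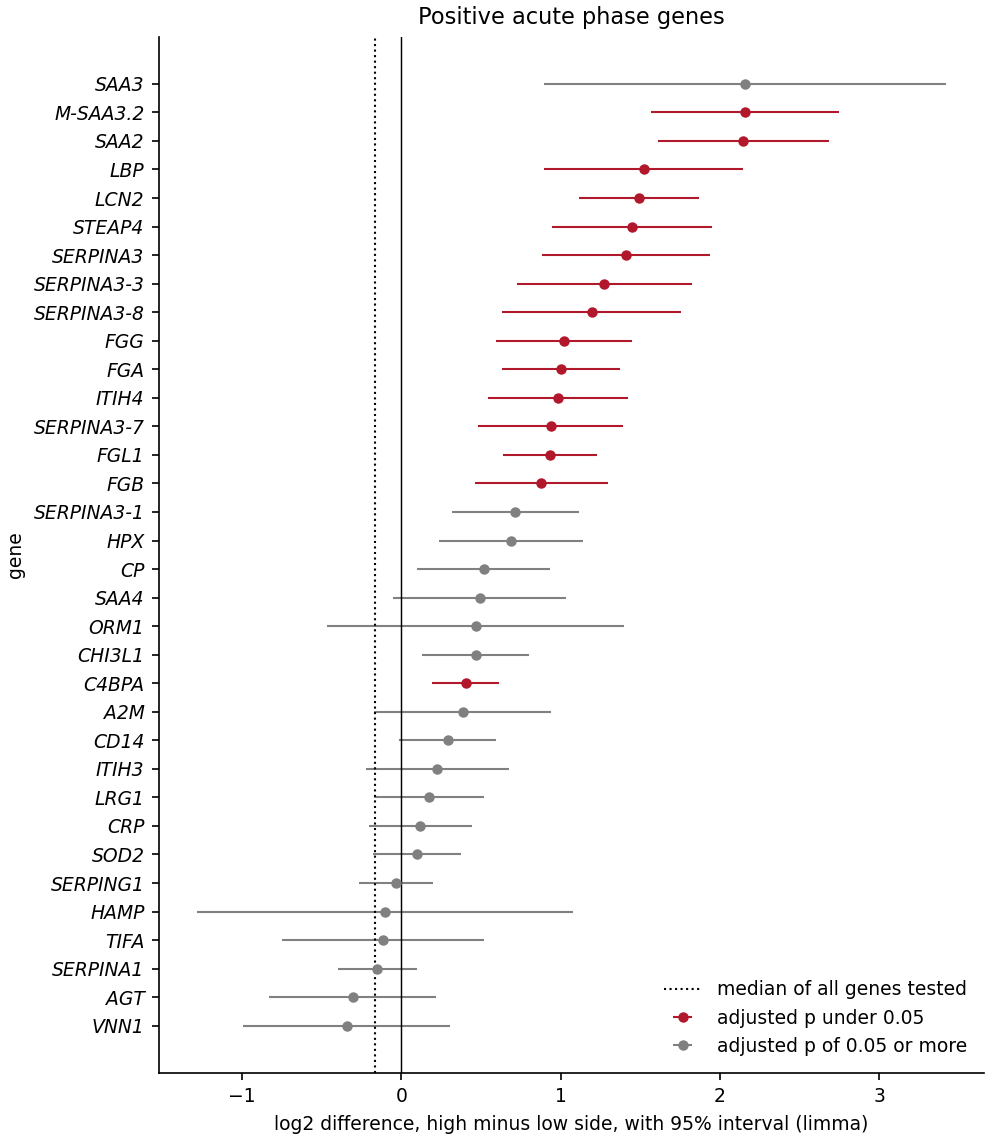
The log2 difference (high minus low side) of the 34 positive acute phase genes tested, as points with their 95% intervals from limma. The 15 genes in red passed the adjusted threshold, all to the right of 0, and the dotted line marks the median of all genes at -0.16.

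How the calls changed without single calves was tested by leaving out each in turn. The median difference of the 34 positive acute phase genes was 0.60 with all calves. It ranged from 0.57 without control calf 1 to 0.73 without control calf 7. Calls were thus lost while this median stayed above 0, and a lost call alone does not show that a difference rested on the calf left out. How far single genes moved cannot be read from the median. Of the 15 calls in the list, M-SAA3.2, SAA2, LCN2 and FGL1 kept theirs whichever calf was left out. The largest loss was 11 of 15, without control calf 1 or without DCLI calf 5, with adjusted p up to 0.136 and 0.0870. Without DCLI calf 6 and without DCLI calf 7, 10 calls each were lost, with adjusted p up to 0.0955 and 0.101. Without control calf 5, control calf 6, DCLI calf 2 and DCLI calf 4, between 6 and 8 were lost, with adjusted p up to 0.0759. Control calves 7, 4 and 3 and DCLI calf 3 ended 1 to 4 calls, with adjusted p up to 0.0694. None was lost without control calf 2 or DCLI calf 1.

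Negative acute phase proteins lay lower as a list, with 20 of 20 differences below 0 and a median of -0.48, but only SELENOP was called. SELENOP, the selenium carrier of plasma, had 2678 to 3971 TPM (median 3373) in the high and 4055 to 5348 TPM (median 4478) in the low calves, without overlap (-0.48 ± 0.12, adjusted p = 0.0480). After median-ratio scaling its difference was -0.29 (adjusted p = 0.531), and the list had a median of -0.28 with 17 of 20 below 0 and no call. The call of SELENOP held only without control calf 2 and without DCLI calf 1, with adjusted p up to 0.103 without 1 of the others. Albumin mRNA (ALB) had 20424 to 60279 TPM (median 41519) against 55275 to 72506 TPM (median 66860.2) (-0.71, adjusted p = 0.0972). PON1, the paraoxonase of high-density lipoprotein, had 247 to 777 TPM (median 595) against 817 to 1332 TPM (median 989), with no overlap and no call (-1.03, adjusted p = 0.0633). AHSG, the plasma protein fetuin-A, had a difference of -0.66 (adjusted p = 0.121).

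In the interleukin 6 and STAT3 list, 14 of 32 differences were above 0, and the median was -0.07 (0.12 after median-ratio scaling). SOCS3, the inhibitor of that pathway, had 9.26 to 31.4 TPM (median 16.9) in high calves and 4.74 to 7.76 TPM (median 5.86) in low calves. The sides did not overlap, the highest level was in DCLI calf 1, and the difference was 1.4998 ± 0.198 (adjusted p = 0.00315). The call held whichever calf was left out. BCL3, a nuclear cofactor of NF-kB, had 6.85 to 17.9 TPM (median 9.89) against 5.60 to 6.59 TPM (median 6.03) (0.74 ± 0.16, adjusted p = 0.0372), a call lost without any 1 of 11 calves, with adjusted p up to 0.0898. CEBPA, a transcription factor of the differentiated hepatocyte, was lower at 9.36 to 20.9 TPM (median 14.4) against 15.2 to 32.0 TPM (median 29.5) (-0.76 ± 0.17, adjusted p = 0.0388), but not after median-ratio scaling (-0.58, adjusted p = 0.234). OSMR, the receptor subunit for oncostatin M, had a difference of 0.46 ± 0.12 and was not called (adjusted p = 0.0510). The interleukin 1, Toll-like receptor and NF-kB list had a median of -0.12 (0.06 after scaling), and in it only IL1R1, the signalling receptor of interleukin 1, was called. It had 62.0 to 195 TPM (median 117) against 52.7 to 77.0 TPM (median 67.95) (0.85 ± 0.20, adjusted p = 0.0455), and missed the threshold after median-ratio scaling (adjusted p = 0.0756). Complement genes had a median of 0.08 (0.27 after scaling), with 18 of 29 above 0 (24 of 29 after scaling). Among them only MBL1, a mannose-binding lectin, was called (0.59 ± 0.14, adjusted p = 0.0448, and 0.0650 after median-ratio scaling).

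**Figure D4:**
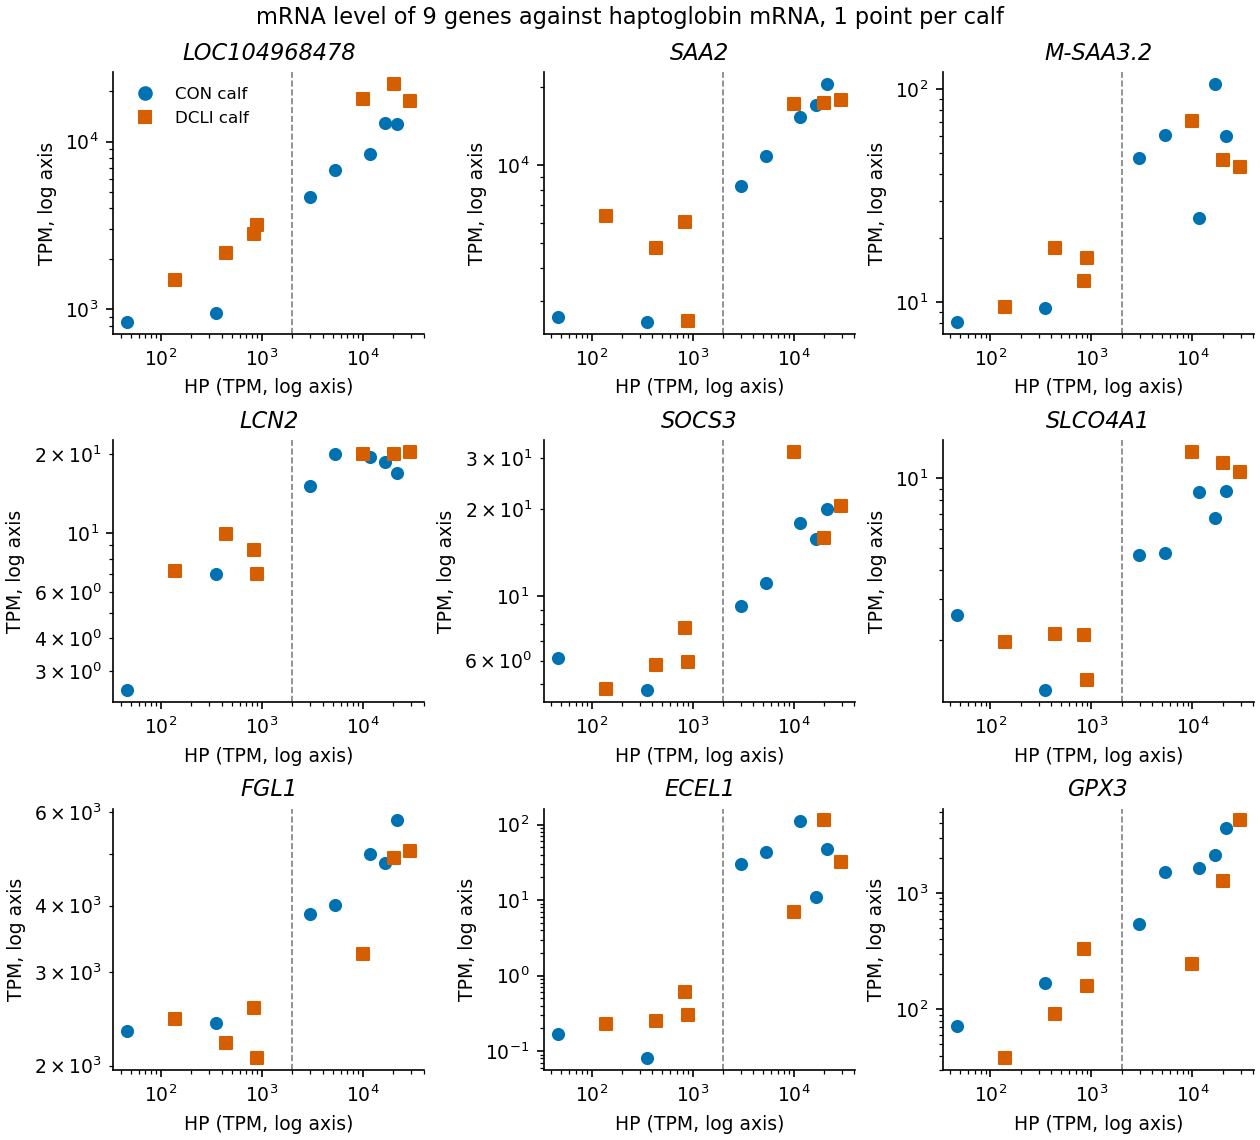
TPM of 9 genes against HP, both on log axes, with 1 point per calf, control calves as circles and DCLI calves as squares, and a dashed line at 2000 TPM of HP. LCN2 sits between 15.1 and 20.3 TPM in every high calf, SOCS3 peaks in DCLI calf 1 at 31.4 TPM, and that calf is the lowest of the high side for ECEL1, GPX3 and FGL1.

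Outside the acute phase lists, the largest differences were in genes of other kinds. ECEL1, a membrane protease related to endothelin-converting enzyme and best known from neurons, was near 0 in every low calf, with 0.0800 to 0.600 TPM (median 0.240), and had 6.88 to 114 TPM (median 38.1) on the high side. The difference was 4.81 ± 0.54, and it was 5.12 within control and 4.54 within DCLI calves. ECEL1 was under 1 TPM in every low calf and passed the filter on low values through the high calves alone, so its difference is a description and its call supports nothing. The same holds for 1 other of the 48 higher genes, ATP6V1C2, named after its values were seen. GPX3, the secreted glutathione peroxidase of plasma, had 245 to 4218 TPM (median 1594) against 37.8 to 333 TPM (median 124) (3.51 ± 0.65, adjusted p = 0.0271). Its sides overlapped because DCLI calf 1 had 244.5 TPM and DCLI calf 2 had 333 TPM. CHI3L2, a chitinase-like protein, had 2.70 to 173 TPM (median 32.5) against 0.520 to 2.88 TPM (median 1.05) (3.49 ± 0.68, adjusted p = 0.0321). CAPN8, a calpain protease known from stomach, had 0.590 to 47.8 TPM (median 21.3) against 0.450 to 1.11 TPM (median 0.810) (2.61 ± 0.62, adjusted p = 0.0461, and 0.115 after median-ratio scaling). The low median of CAPN8 was under the 1 TPM of the filter, which it passed mostly through the high calves, so its call is a description. SPIDR, a scaffold protein of DNA repair, differed by 2.33 ± 0.49 (adjusted p = 0.0339, and 0.0539 after median-ratio scaling).

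Further down the order, S100A2, a calcium-binding protein, had 67.96 to 593 TPM (median 271) against 22.9 to 78.9 TPM (median 46.9) (2.30 ± 0.39, adjusted p = 0.0216). SCGB1A1, a secretoglobin best known from airway epithelium, had 3.32 to 19.3 TPM (median 8.60) against 0.570 to 2.74 TPM (median 1.72), without overlap (1.83 ± 0.36, adjusted p = 0.0334). SLCO4A1, a transporter of thyroid hormone and organic anions, had 4.65 to 12.9 TPM (median 8.76) against 1.22 to 2.56 TPM (median 2.04), also without overlap. Its difference of 1.81 ± 0.19 had the lowest p of any gene with a name (adjusted p = 0.000602). HAPLN3, a link protein of hyaluronan matrix, and S100A9, a subunit of calprotectin, differed by 1.71 ± 0.37 and 1.65 ± 0.37 (adjusted p = 0.0361 and 0.0391, the latter 0.0676 after median-ratio scaling). All 12 of the largest higher genes were above the low side both within control and within DCLI calves. They were chosen by the fit over these same calves, so this is a description and no support. Of the 12, 9 were also called after median-ratio scaling, where 0.294% of all genes were called higher. The sides did not overlap for 5 of them, as for 0.185% of all genes with the high side above. DCLI calf 1 had the lowest level of the high side for ECEL1, GPX3, CHI3L2, CAPN8, SPIDR and S100A2, although its HP was 10022 TPM and its SAA2 17125 TPM.

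Leaving out control calf 1, control calf 7, DCLI calf 5, DCLI calf 6 or DCLI calf 7 ended 8 of these 12 calls each, with adjusted p up to 0.131, 0.0791, 0.0814, 0.101 and 0.0994. Only the calls of SLCO4A1, SAA2 and M-SAA3.2, beside that of ECEL1, survived each of these. Control calves 5, 6, 4 and 3 and DCLI calves 2, 4 and 3 ended 1 to 5 calls, with adjusted p up to 0.0727. Over all named and unnamed genes, 8 of the 48 higher genes were called whichever calf was left out, on both scales: LOC104968478, SLCO4A1, SAA2, LCN2, M-SAA3.2, SOCS3, FGL1 and ECEL1, the last of which the filter let through for its high side alone.

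**Figure D5:**
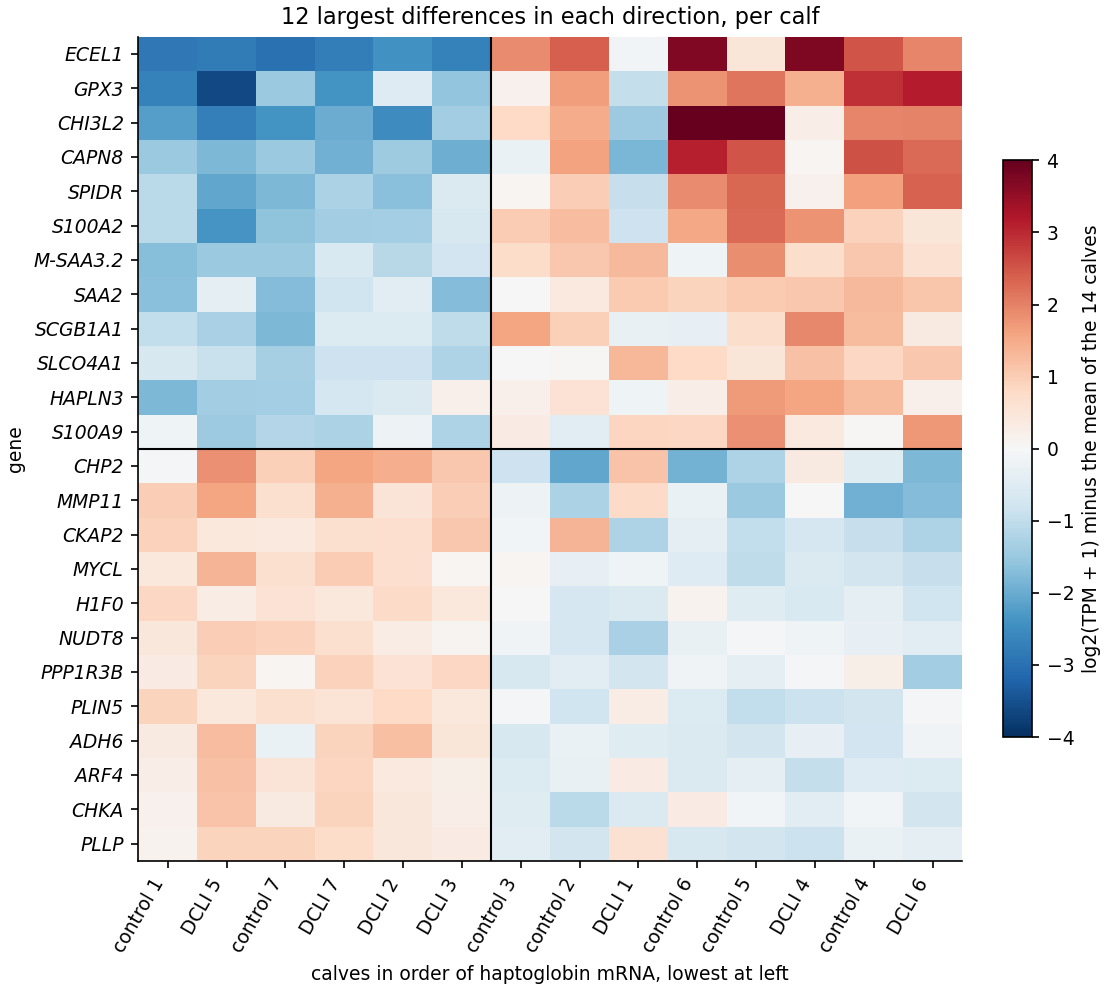
Heatmap of the 12 largest differences in each direction among genes called, 1 row per gene and 1 column per calf in order of haptoglobin mRNA, coloured by log2(TPM + 1) minus the mean of the 14 calves. The vertical line divides the 6 low from the 8 high calves, and DCLI calf 1 on the high side is pale or blue in several of the upper rows.

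Genes lower on the high side differed by less. H1F0, a replacement linker histone of cells that do not divide, had 32.1 to 62.7 TPM (median 39.0) on the high and 70.8 to 101 TPM (median 81.5) on the low side. The sides did not overlap, and the gene was called on both scales (-1.07 ± 0.14, adjusted p = 0.00242; -0.88, adjusted p = 0.0276 after median-ratio scaling). It kept its TPM call whichever calf was left out, as did SAT2 and CTSF, but no lower gene kept a call on both scales in every such fit. ADH6, an alcohol dehydrogenase listed as gene-ADH6, had 0.480 to 1.3 TPM (median 0.750) against 1.12 to 4.97 TPM (median 3.12) (-0.99 ± 0.17, adjusted p = 0.0216, and 0.0294 after median-ratio scaling). The high median of ADH6 was under the 1 TPM of the filter, which it passed mostly through the low calves, so its call is a description. TICAM1, the adaptor of Toll-like receptor 3, had 2.62 to 4.05 TPM (median 3.08) against 4.80 to 6.63 TPM (median 5.43), without overlap (-0.66 ± 0.11, adjusted p = 0.0216, and 0.0441 after scaling). These were 3 of the 4 lower genes called on both scales. The TPM calls of ADH6 and TICAM1 were lost without control calf 1 and without DCLI calf 5, 6 or 7, with adjusted p up to 0.0660 in both.

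The other large lower differences were called on the TPM scale alone. CHP2, a calcineurin-like calcium sensor, had 3.65 to 42.2 TPM (median 8.62) against 17.7 to 67.6 TPM (median 46.5) (-1.65 ± 0.41, adjusted p = 0.0480, and 0.218 after median-ratio scaling). MMP11, a matrix metalloprotease, had 0.930 to 11.4 TPM (median 3.54) against 9.40 to 20.6 TPM (median 13.4) (-1.62 ± 0.38, adjusted p = 0.0461, and 0.196 after scaling). CKAP2, a protein of the mitotic spindle, had 1.08 to 11.6 TPM (median 1.85) against 5.51 to 9.52 TPM (median 6.79), the highest of all in control calf 2 (-1.35 ± 0.33, adjusted p = 0.0480, and 0.151 after scaling). MYCL, a transcription factor of the MYC family, had 4.05 to 9.79 TPM (median 5.96) against 9.68 to 24.8 TPM (median 14.9) (-1.19 ± 0.22, adjusted p = 0.0255, and 0.0805 after scaling). PPP1R3B, which brings a phosphatase to glycogen, PLIN5, which coats lipid droplets, and CHKA, choline kinase, differed by -1.06, -1.04 and -0.94 log2 units, and by -0.87, -0.87 and -0.76 after scaling (adjusted p = 0.180, 0.141 and 0.303). NUDT8, ARF4 and PLLP, of which ARF4 is a GTPase of the Golgi, completed the 12 with -1.06, -0.97 and -0.92 (adjusted p = 0.130, 0.210 and 0.300 after scaling). All 12 were lower within control and within DCLI calves, which is a description, as they were chosen by the fit over these same calves. Without DCLI calf 5, 6 or 7, 11 of the 12 TPM calls were lost each time, and without control calf 1 or 7, 10 were lost, with adjusted p up to 0.131. Each of the other calves but control calf 2 ended 2 to 7 of them, with adjusted p up to 0.0763.

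Genes of hepatocyte metabolism mostly had differences below 0, with few calls and none after median-ratio scaling. By TPM, 2.04% of all genes were called lower, and the median difference of all genes was -0.16 (0.00 after scaling). The calls and directions of these lists are to be read against that share and that shift. In the list of fatty acid oxidation and ketogenesis, 30 of 31 differences were below 0 (26 of 31 after scaling), with a median of -0.39 (-0.20 after scaling). ACAA1, the thiolase of peroxisomes, had 619 to 864 TPM (median 690.1) against 889 to 1054 TPM (median 975), without overlap (-0.45 ± 0.09, adjusted p = 0.0339), and HADHB, a subunit of the mitochondrial trifunctional protein, differed by -0.50 ± 0.12 (adjusted p = 0.0461). Hepatocyte transcription factors had 17 of 18 differences below 0 with a median of -0.28 (13 of 18 and -0.10 after scaling). ATF5 and RXRA were called lower, where 2.04% of all genes were (-0.87 and -0.42, adjusted p = 0.0377 and 0.0455, and 0.257 and 0.523 after scaling). Of the list of cytochrome P450 and phase I enzymes, 25 of 31 were below 0 with a median of -0.34 (-0.15 after scaling). Only the microsomal epoxide hydrolase EPHX1 was called (-0.58, adjusted p = 0.0455, and 0.421 after scaling). Of 44 genes of secretory transport 27 were below 0 and 17 above, with a median of -0.10, and after scaling 16 were below and 28 above, with a median of 0.10, so the direction of the list turned. Of its members COPB1 and COPA of the coatomer, SEC62 of the translocation channel and SEC31A of the COPII coat were lower by TPM (-0.49, -0.49, -0.40 and -0.38). Their adjusted p ranged from 0.0367 to 0.0453, and was 0.379 or more after scaling. Genes of endoplasmic reticulum folding and stress had a median of 0.05 (0.24 after scaling) and no call. Above 0 were 18 of 33 of them, and 25 of 33 after scaling. XBP1, the factor that enlarges secretory capacity, was at 0.54 (adjusted p = 0.0945). HFE, which regulates hepcidin, and KLF10, an immediate early transcription factor, were lower by TPM (-0.54 and -0.63, adjusted p = 0.0461 and 0.0464) and not after scaling (adjusted p = 0.383 and 0.260). Ribosomal proteins, at a median of -0.09 with 59 of 66 below 0, and nuclear-encoded oxidative phosphorylation, at -0.11 with 40 of 45 below 0, held no call. Both turned direction after scaling, to 0.10 with 58 of 66 above 0 and to 0.09 with 37 of 45 above 0. Cell cycle genes had 28 of 28 differences below 0 and a median of -0.48 (-0.33 and 27 of 28 after scaling) with no call, and interferon-stimulated genes 29 of 31 and -0.37 (-0.19 and 26 of 31 after scaling), also with no call. The interferon list had a median of -0.0090 within control and -0.77 within DCLI calves, and the cell cycle list -0.18 and -0.85, where all genes had -0.14 and -0.19. The difference between the feeding groups was not tested for these medians.

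Markers of other cells were measured beside these results. Of 20 entries for neutrophils, 17 were found and 7 tested, 5 with differences above 0 and 2 below. Called higher were S100A12 and S100A9, where 0.403% of all genes were. S100A12, which with S100A8 and S100A9 marks neutrophils and monocytes, had 47.1 to 131 TPM (median 58.4) against 14.7 to 33.8 TPM (median 22.2), without overlap (1.47 ± 0.25, adjusted p = 0.0216, a call lost without control calf 7, DCLI calf 5 or DCLI calf 7, with adjusted p up to 0.0660). S100A8 and LTF, lactoferrin, had differences of 1.42 and 1.65 (adjusted p = 0.0536 and 0.0780). Differences were 0.090 ± 0.14 for CXCR2, a receptor of interleukin 8, and -0.43 ± 0.38 for the integrin chain ITGAM (adjusted p = 0.694 and 0.483), and neither was called. The granule genes MPO, CAMP, CATHL1, CATHL2, CATHL3, MMP9 and PGLYRP1, and the receptor FCAR, were under 1 TPM in every calf. The summed TPM of the list was 122 to 269 on the high side and 45.3 to 110 on the low side, and its part in the results was not tested. Macrophage markers summed to 1804 to 9136 TPM on the high and 2845 to 5844 TPM on the low side, with 0 of 15 called. T and NK cell markers summed to 58.9 to 810.2 and 90.9 to 285 TPM, with 0 of 20 called. Of all genes 2.44% were called in either direction, so 0 calls among so few genes cannot show that these cells did not differ. Of cholangiocyte markers 7 of 9 were above 0 with no call, among them PIGR, the receptor that carries immunoglobulin into bile (1.64, adjusted p = 0.0600). The 15 hepatocyte markers were all present, and summed to 37641 to 91090 TPM on the high and 84404 to 107242 TPM on the low side. Of these only ASGR2, a chain of the asialoglycoprotein receptor, was called (-0.70, adjusted p = 0.0464, and 0.367 after median-ratio scaling). Of the stellate cell list PDGFRB was called lower (-0.49, adjusted p = 0.0334, and 0.317 after scaling). Outside the positive acute phase list, each call of a list member other than SOCS3 was lost without DCLI calf 5, without DCLI calf 7 and in most cases without several other calves, with adjusted p up to 0.135, for HADHB.

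Whether the difference between the sides depended on the feeding group was tested with an interaction term. No gene passed (0%), with 466 genes at an unadjusted p under 0.05 and a lowest adjusted p of 0.936 (limma). The 34 acute phase genes had differences above 0 for 28 within control calves and for 28 within DCLI calves, with medians of 0.79 and 0.59. Within the 7 control calves alone, of which 2 were on the low side, no gene was called, with 1161 at an unadjusted p under 0.05 and a lowest adjusted p of 0.138 (limma). Within the 7 DCLI calves 5 genes were higher, LOC104968478, SLCO4A1, NNMT, LCN2 and SERPINA3-3, and 3 were lower, CKAP2, OAS1Z and H1F0, all named after their values were seen.

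The level of HP also varied inside each side, and the 12 genes with the largest higher differences were set against it there. HP formed the sides and the genes were chosen by them, so these values are a description with no test. Over the 8 high calves SAA2 had a Pearson's r of 0.933 and a Spearman's rho of 0.905 with HP. Without control calves 3 and 2, the calves farthest from the median of HP, r was 0.580. The size of r thus depended on them, though leaving them out also narrows the range of HP. Over the 6 low calves SAA2 had an r of 0.129 and a rho of -0.143. HAPLN3 had an r of 0.876 and a rho of 1.0 over the 6 low calves, and 0.424 and 0.405 over the 8 high calves. Among 24 relations, SAA2 had the highest r of the high side and HAPLN3 that of the low side. The lowest r were -0.125 for SCGB1A1 over the high calves and -0.555 for SLCO4A1 over the low calves.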

How the data were processed

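Liver libraries of 14 calves, 7 CON and 7 DCLI, were used, and n counts calves. Treated titles were read as DCLI. The authors deposited 1 table of TPM for 49721 RefSeq transcripts of 17469 genes. TPM is scaled for transcript length and library total, so depth is unknown and no counting interval can be given, and a high share for some transcripts lowers all other values of a library. SOAPnuke 1.5.6, RSEM 1.3.1 and DESeq2 1.4.5 are named per the submitters' processing notes and the labels' protocols. No aligner or genome build is named (not given in the sources used here). Symbols were those of the deposited table. The RefSeq gene table of ARS-UCD2.0, which held 98.8% of the gene IDs, replaced only symbols starting with LOC and restored 8 symbols that had become dates.

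TPM was summed per gene, and a gene was kept when 7 or more libraries had 1 TPM or more, with HP left out. The sides were set at 2000 TPM of HP. Values were tested as log2(TPM + 1), so differences are on that scale and understate those of low genes. limma 3.58.1 in R 4.3.3 (lmFit, eBayes with trend, two-sided) fitted side with feeding group as a covariate, and p-values were adjusted by Benjamini-Hochberg and called under 0.05. Errors are standard errors of the log2 difference. Median-ratio scaling applied the size-factor formula to TPM. On simulated data with 11904 genes and 50 changed per fold, the high against low fit recovered 60% at 1.5-fold, 86% at 2-fold and 94% at 3-fold and 4-fold, with 8 unchanged genes called. There each gene was drawn independently with normal errors and no shift over all genes, unlike the real libraries, so these rates may not hold for them.

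The sides, the markers, the 36 gene lists (956 of 974 entries matched) and the rules were chosen with earlier results of these data known. Named genes are the 12 called genes of largest difference in each direction, the positive acute phase genes that were called, and up to 4 genes of lowest p in other lists described, without genes that lack a symbol. Others are said to be named after their values were seen; the genes lower on both scales and the uncalled acute phase genes were also picked so. Alternatives were other pseudocounts, filters, scalings, limits and thresholds, HP as a continuous level, no covariate, each group alone, sample weights, no trend, a replicate block and leaving out calves. The labels name no batch. No sequences are printed, and some genes are not reported here.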

Additional observations from a re-analysis of the deposited data

Results flagged for a closer look

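In 82 tests of single calves against their side, 6 calves' values stood far from the others; about 1 in 20 such tests does so by chance. On the low side, 4 of the 6 were in control calf 1, the calf with the least HP: FGG at 6820 TPM, FGB at 5188 TPM, LCN2 at 2.54 TPM and SERPINA3-3 at 584.8 TPM, each below the other 5 low calves. On the high side, CKAP2 at 11.61 TPM in control calf 2 and PLLP at 28.34 TPM in DCLI calf 1 stood above the other 7 calves.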

How the results depend on the processing

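The number of genes called moved with most choices, and far more for lower than for higher genes. Against 48 higher and 243 lower genes, the counts were 31 and 12 after rescaling without the 20 most abundant genes and HP, 35 and 4 with median-ratio scaling, 25 and 7 with quantile normalization, 82 and 460 with HP as a continuous level, and 88 and 15 with that level after median-ratio scaling, a choice made after seeing the data. With the limit at 4000 TPM, which moves control calf 3 to the low side, they were 29 and 17. They were 57 and 376 when only genes averaging 5 TPM or more were tested, 70 and 556 without the covariate, 77 and 783 with sample weights, 0 and 0 in control calves alone, 5 and 3 in DCLI calves alone, 8 and 2 at a threshold of 0.01 and 96 and 932 at a threshold of 0.1. Leaving out 1 calf gave 8 to 84 higher and 3 to 1107 lower genes, and with median-ratio scaling, a choice made after seeing the data, 8 to 70 and 0 to 35. The cause of these moves was not tested. Pseudocounts of 0.1 and 5, no filter, a limit of 1000 TPM, no trend and leaving out control calf 2 with DCLI calf 6 kept both counts within 1.5 times. No named gene changed sign past the threshold under any of these, but 15 of 36 list medians turned from below to above 0 with median-ratio scaling.

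For the interaction, leaving out 1 calf gave 0 to 3 genes: STAT2, CCL19 and LOC101905630 without control calf 1 and FUOM without control calf 7. Either leaves 1 low control calf, which is assumed to vary like the other calves. All other settings gave 0.

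With the replicate number as a block, 2 genes were higher, SLCO4A1 (adjusted p = 0.0147) and LCN2 (adjusted p = 0.0158), none was lower and 1484 had an unadjusted p under 0.05 (limma). The interaction had 0 calls with the block and 168 at an unadjusted p under 0.05 (limma). Whether the numbers pair the calves cannot be told from 7 pairs. Of these, 4 had a correlation over 0.1 after removal of the feeding group alone (range -0.167 to 0.454). On that basis 2 of 7 control calves correlated best with their own number. With the side removed as well, the correlations ranged from -0.260 to 0.441. The block fit has 5 residual degrees of freedom. Depth is unknown, so what it limits could not be given.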

Other observations

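Of the 48 higher genes 26 were in no list, and 228 of the 243 lower genes; those given here were named after their values were seen. BCL6, a transcriptional repressor that is known in liver to restrain fat metabolism genes, had a mean of 8.73 TPM on the high side (SD 2.49) and 4.02 TPM on the low side (SD 0.960) (0.99 ± 0.18, adjusted p = 0.0242, and 0.0180 after median-ratio scaling). ABCA1, which exports cholesterol to apolipoprotein A1, had 13.2 TPM on the high side (SD 2.33) and 7.44 TPM on the low side (SD 1.76) (0.78 ± 0.16, adjusted p = 0.0339, and 0.0287 after scaling). RAP1GAP, which switches off the GTPase RAP1, had 16.0 TPM on the high side (SD 4.58) and 5.83 TPM on the low side (SD 1.49) (1.17 ± 0.22, adjusted p = 0.0271, and 0.0178 after scaling). AOC1, the diamine oxidase that breaks down histamine and putrescine, had 126 TPM on the high side (SD 42.4) and 58.9 TPM on the low side (SD 12.8) (0.90 ± 0.19, adjusted p = 0.0339, and 0.0570 after scaling). TMPRSS2, a serine protease of epithelial membranes, had 2.82 TPM on the high side (SD 0.826) and 1.63 TPM on the low side (SD 0.279) (0.56 ± 0.14, adjusted p = 0.0475, and 0.0580 after scaling).

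Among lower genes in no list, PER2, a repressor of the circadian clock, had 4.46 TPM on the high side (SD 1.31) and 7.75 TPM on the low side (SD 1.57) (-0.81 ± 0.17, adjusted p = 0.0339, and 0.196 after median-ratio scaling). All calves were sampled on day 90, and the hour is not given in the sources used here. SHBG, the carrier of sex steroids in plasma, had 124 TPM on the high side (SD 16.0) and 183 TPM on the low side (SD 24.9) (-0.57 ± 0.11, adjusted p = 0.0333, and 0.378 after scaling). KHK, the fructose kinase, had 330.4 TPM on the high side (SD 59.5) and 469 TPM on the low side (SD 28.7) (-0.52 ± 0.13, adjusted p = 0.0480, and 0.478 after scaling). SHMT2 and MAT2A, enzymes of one-carbon and methionine metabolism, differed by -0.68 ± 0.14 and -0.46 ± 0.09 (adjusted p = 0.0339 and 0.0339, and 0.285 and 0.456 after scaling). SEC16A and MIA3, which organise the exit of secretory cargo from the endoplasmic reticulum, differed by -0.82 ± 0.17 and -0.37 ± 0.09 (adjusted p = 0.0347 and 0.0461, and 0.257 and 0.495 after scaling).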
